A study of Mus musculus with 6 samples.

Results

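The miR-15, miR-16, miR-195 and miR-497 microRNAs (miRNAs) were followed in N2A (Neuro2A) cells, a line from a mouse neuroblastoma, given a control siRNA (si-NC, 3 libraries) or an siRNA directed at the circular RNA circCpsf6 (si-circCpsf6, 3 libraries). Either siRNA was given with a lipid reagent to a final 100 nM, and small RNA was sequenced from total RNA. Serum at 10% and antibiotic at 1% are listed alike for every library. Entries were taken by name, namely every entry named mmu-miR-15a, mmu-miR-15b, mmu-miR-16, mmu-miR-195a, mmu-miR-497a or mmu-miR-497b, whichever arm of the hairpin or length variant it stood for. This gave 11 of the 1080 entries listed, covering all 6 of the names, with 5 entries of the 5p arm, 5 of the 3p arm and 1 (miR-497b) with no arm in its name. All 11 passed the filter on low values and are among the 916 entries tested. How far circCpsf6 was silenced was not analysed here.

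miRNAs are cut from hairpin precursors, and one or both arms of the hairpin are loaded into Argonaute proteins, where bases 2 to 8, the seed, pair with target messenger RNAs. The 5p arms of this family are known for restraining the cell cycle and survival: their targets in mammalian cells include the G1 cyclins Ccnd1, Ccnd2 and Ccne1, the kinase Cdk6 and the survival gene Bcl2. miR-15a and miR-16-1 are best known from their loss in human chronic lymphocytic leukaemia, and miR-195a and miR-497a from the withdrawal of heart and skeletal muscle from the cell cycle.

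The mature sequences show which members share a seed, the part that selects targets. They are given 5′ to 3′ as RefSeq lists them (GRCm38.p6), with the seed in capitals, and all 11 entries matched by name. The 5p arms shared the seed.
miR-16-5p: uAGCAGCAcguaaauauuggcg
miR-15b-5p: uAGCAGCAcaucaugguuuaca
miR-15a-5p: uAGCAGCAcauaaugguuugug
miR-195a-5p: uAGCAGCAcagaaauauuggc
miR-497a-5p: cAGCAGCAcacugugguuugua
Compared position by position with the 22 bases of miR-16-5p, miR-195a-5p had the same letter at 19 positions, miR-15a-5p at 16, miR-15b-5p at 14 and miR-497a-5p at 11. The seed is thus common to them and the remainder differs. Among mature mouse miRNAs of RefSeq, 10 of 1679 carry this seed, and 6 of those 10 are listed in the files, the sixth being miR-322-5p. The 3p arms come from the other side of the same hairpins and each has a seed of its own.
miR-15b-3p: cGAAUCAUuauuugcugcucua
miR-15a-3p: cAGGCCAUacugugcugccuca
miR-16-1-3p: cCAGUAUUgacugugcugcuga
miR-16-2-3p: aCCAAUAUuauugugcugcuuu
miR-195a-3p: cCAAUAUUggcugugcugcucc
The remaining entry, miR-497b, is read from the strand opposite miR-497a and carries none of these seeds. It is listed as a length variant (L-1), so the seed marked is that of the RefSeq sequence and may not be that of the listed entry.
miR-497b: cACCACAGugugguuuggacgugg

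The hairpins lie in pairs at 3 places in the genome (GENCODE M21, GRCm38, not the submitters' mm9). Mir15b (chromosome 3, 69009772 to 69009835, plus strand) and Mir16-2 (69009902 to 69009996) are 66 bases apart in an intron of Smc4, which encodes a condensin subunit. Mir15a (chromosome 14, 61632027 to 61632110, minus strand) and Mir16-1 (61631880 to 61631972) are 54 bases apart in the long noncoding RNA gene Dleu2, Mir15a in an intron and Mir16-1 overlapping an exon. Mir195a (chromosome 11, 70235042 to 70235135, plus strand) and Mir497 (70234717 to 70234800) are 241 bases apart and overlapped no other annotated gene apart from Mir497b on the opposite strand (70234692 to 70234816). Because Mir16-1 and Mir16-2 give the same 5p sequence, a read of miR-16-5p cannot be placed at either locus, whereas miR-16-1-3p and miR-16-2-3p can be told apart.

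The authors' normalized read numbers, which are rounded to whole numbers and are no raw counts, summed to between 2570449 and 3268351 per library, so that read depth is unknown and no counting interval can be given. The library si-NC replicate 3 stood apart: 558 entries reached a value of 1 or more there, against 717 to 849 in the others, and it held 18 distinct values from 1 to 40, against 38 or 39. Values without it are given beside the main results that move with it. Nothing in the labels says that replicates are separate cultures, so a p-value reflects the spread between the libraries alone, which may be technical. The 7 neuroblast and neuron markers looked up were all listed, with sums of 134727 to 259938 for si-NC and 234884 to 387408 for si-circCpsf6. Most of these sums was miR-7a-5p, at 88548 to 364458. Of the 7, 4 had higher and 3 (miR-9-5p, miR-128-3p and miR-218-5p) lower log2 values with si-circCpsf6. One, miR-138-5p, was higher at an unadjusted limma p of 0.0416, where 3.28% of all tested entries were higher at a p under 0.05. Another, miR-9-5p, was lower without overlap between the groups, where 4.91% of all tested entries were. No marker of any list had a limma adjusted p under 0.05. Of 5 blood cell markers 2 had no entry and none exceeded 29 in any library. Among the other tissue lists, the 6 epithelial markers summed to between 151 and 431 with si-NC and between 7 and 62 with si-circCpsf6, 3 of the 6 being lower at an unadjusted limma p under 0.05, where 2.95% of all tested entries were (limma is the linear-model test used throughout). Of 3 muscle markers 2 had entries, which summed to between 49 and 132 and between 43 and 72, and the liver marker miR-122 reached at most 5. Of the endothelial and mesenchymal markers, 4 of 5 had an entry after copies were merged. They summed to between 67947 and 106293 and between 80968 and 105821. Of these, miR-214-3p was higher at an unadjusted limma p of 0.0219, next to the same 3.28% of all tested entries. The part of these markers in the results below was not tested.

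The family was dominated by miR-16-5p in both groups, and no member passed the test between the groups. miR-16-5p was listed at 26998, 21252 and 67301 in si-NC replicates 1, 2 and 3 and at 36038, 26335 and 45178 in si-circCpsf6 replicates 1, 2 and 3 (this order of libraries is kept below). The groups overlapped, and the highest value was that of si-NC replicate 3. Its means were 38517 ± 25093 with si-NC against 35850 ± 9423 with si-circCpsf6 (SD, n = 3 each), and by mean over all 6 libraries it ranked 20 among the tested entries. The difference was 0.05 on the scale of log2(value + 1), on which all log2 changes are given here (SE 0.45, limma adjusted p = 0.992). The sign of this log2 change is opposite to that of the difference of the means. In total RNA from a culture, a lower value can mean fewer cells with the miRNA or less of it per cell, and these cannot be told apart.

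Of the 11 entries, 0 had an adjusted p under 0.05 by limma, against 0 of the 916 entries tested (0.0%). At an unadjusted p under 0.05 there was 1, miR-15b-3p, higher with si-circCpsf6, where 6.22% of all tested entries lay below that limit and 3.28% did so with a higher value. The member count was close to the background. Log2 values were higher with si-circCpsf6 for 7 of the 11 and lower for 4, the median log2 change being 0.10, next to 0.086 over all tested entries.

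**Figure D1:**
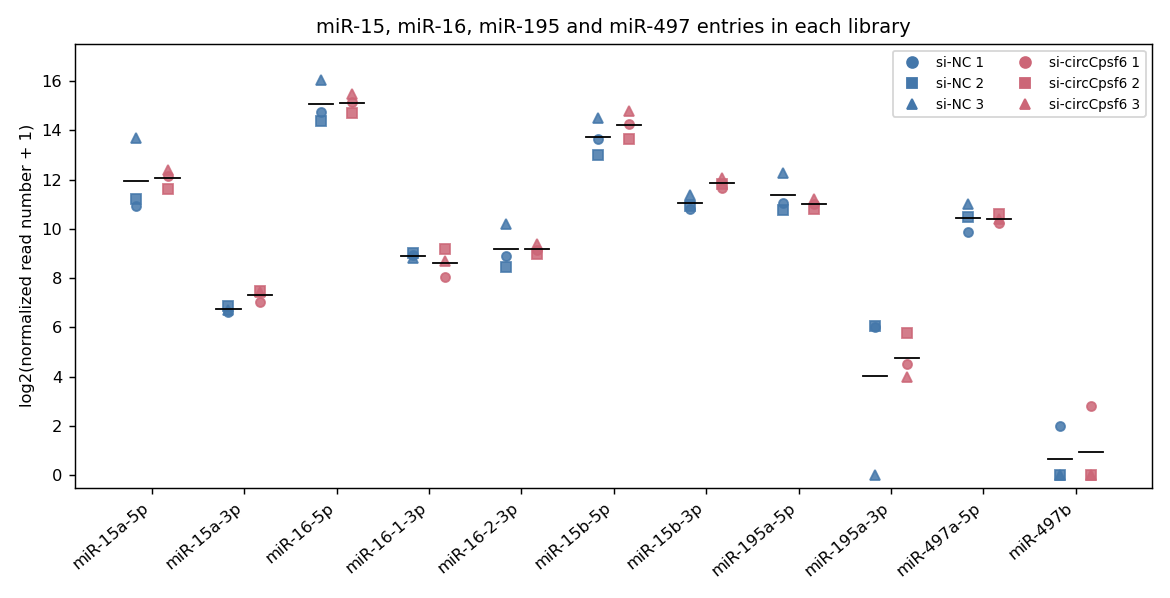
Values of the 11 family entries as log2(normalized read number + 1) on the vertical axis, one symbol per library (blue si-NC, red si-circCpsf6; circle, square and triangle for replicates 1, 2 and 3) and a black line at each group mean. The 3 si-circCpsf6 values of miR-15b-3p (3227 to 4319) lie above the 3 si-NC values (1787 to 2675), while the groups overlap for each of the 5p arms, where si-NC replicate 3 is the highest si-NC library.

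Among the members, miR-15b-3p had the smallest unadjusted limma p between the groups, 0.0163. miR-15b-3p, the arm opposite the one with the shared seed, was listed at 1787, 1941 and 2675 with si-NC against 3227, 3597 and 4319 with si-circCpsf6. Every si-circCpsf6 library was above every si-NC library. The means were 3714 ± 555 against 2134 ± 475 (n = 3 per group), a ratio of 1.74. The log2 change of 0.81 (SE 0.27, limma adjusted p = 0.482) did not pass the correction over all entries, and without si-NC replicate 1 no member had an unadjusted p under 0.05. With weights estimated for each library it had an adjusted p of 0.0316, where 3.38% of entries passed. In the authors' deposited table its unadjusted p was 0.0209, the only value under 0.05 among the members, where 3.7% of all entries were. The direction was kept with any single library left out (log2 change 0.69 to 0.99).

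The other arm of the same hairpin, miR-15b-5p, is the second most abundant member and was listed at 12689, 8239 and 23438 with si-NC against 19305, 12753 and 27839 with si-circCpsf6. The groups overlapped, si-NC replicate 3 being above 2 of the 3 si-circCpsf6 libraries. Its means were 14789 ± 7814 and 19966 ± 7565 (log2 change 0.49, SE 0.44, adjusted p = 0.894). Its sister at the Smc4 locus, miR-16-2-3p, was at 481, 346 and 1173 with si-NC against 569, 499 and 672 with si-circCpsf6. Here si-NC replicate 3 was the highest of all 6 libraries and the other si-NC libraries the lowest, and the log2 change was -0.011 (SE 0.46, adjusted p = 0.999). The miR-15b hairpin shows how the 2 arms are placed, with the mature 5p arm and the mature 3p arm in capitals.
Mir15b: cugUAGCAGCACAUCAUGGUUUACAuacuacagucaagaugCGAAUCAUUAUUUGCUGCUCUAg

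At the Dleu2 locus, miR-15a-3p was the other entry whose groups did not overlap. It is listed as a variant with a substitution at its last base, and had values of 99, 115 and 104 with si-NC against 130, 177 and 170 with si-circCpsf6. All 3 si-circCpsf6 libraries lay above the si-NC range. The means were 106 ± 8.19 and 159 ± 25.4 (log2 change 0.57, SE 0.40, adjusted p = 0.803). Thus 2 of 11 members did not overlap between the groups, both higher with si-circCpsf6, where 6.77% of all tested entries did so in that direction, 4.91% in the other and 11.7% in either.

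miR-15a-5p, the arm of that hairpin with the shared seed, had the widest spread relative to its mean among the 5p arms. It was at 1947, 2368 and 13188 with si-NC against 4555, 3095 and 5362 with si-circCpsf6. In si-NC replicate 3 it stood 6.11 times above the mean of the other si-NC libraries, and the si-circCpsf6 values lay between these extremes. The log2 change was 0.10 (SE 0.67, adjusted p = 0.992) although the si-NC mean, 5834 ± 6372, was above the si-circCpsf6 mean, 4337 ± 1149. miR-16-1-3p, the entry that marks the Dleu2 copy of miR-16, was at 486, 517 and 444 with si-NC against 261, 580 and 408 with si-circCpsf6, with both the lowest and the highest value with si-circCpsf6 (log2 change -0.28, SE 0.37, adjusted p = 0.945).

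The 5p arms of miR-195a and miR-497a were lower in mean level than those of miR-15 and miR-16 and showed no separation. By mean normalized read number the order was miR-16-5p, miR-15b-5p, miR-15a-5p, miR-195a-5p and miR-497a-5p, all of nearly equal length. Each was above the next in 6 of 6 libraries, except that miR-15a-5p was above miR-195a-5p in 5 of 6, not in si-NC replicate 1. Whether read numbers of different miRNAs rank their amounts was not tested, and miR-16-5p is read from both Mir16-1 and Mir16-2. miR-195a-5p was at 2107, 1735 and 4983 with si-NC against 2051, 1785 and 2374 with si-circCpsf6 (log2 change -0.36, SE 0.41, adjusted p = 0.915). Apart from si-NC replicate 3, all libraries lay between 1735 and 2374. miR-497a-5p was at 932, 1437 and 2069 with si-NC against 1201, 1563 and 1357 with si-circCpsf6, the latter group lying inside the range of the former (log2 change -0.040, SE 0.34, adjusted p = 0.992). miR-195a-3p, which ranked 489 by mean, was at 63, 66 and 0 with si-NC against 22, 54 and 15 with si-circCpsf6. Its log2 change of 0.75 (SE 1.60, adjusted p = 0.977) has the opposite sign to the difference of its means, 43.0 ± 37.3 and 30.3 ± 20.8, and si-NC replicate 3 is listed at 0. miR-497b was listed at 3 in si-NC replicate 1, at 6 in si-circCpsf6 replicate 1 and at 0 in the other libraries (log2 change 0.27, SE 1.14, adjusted p = 0.992), and no entry for miR-497a-3p was among the members found.

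Summed over the 11 entries, the family stood at 47592, 38016 and 115375 with si-NC against 67365, 50438 and 87694 with si-circCpsf6. The si-NC libraries held both the lowest and the highest sum. The means were 66994 ± 42172 and 68499 ± 18654, a difference of 1505 that is small beside either SD. As a share of the summed values of all 1080 listed entries, copies included, the family held between 1.30% and 4.49% with si-NC. With si-circCpsf6 it held between 1.54% and 3.04%. Without si-NC replicate 3 the si-NC mean was 42804 and the difference 25695. The sign of this difference was not stable, since it was -8197 without si-NC replicate 1, -12985 without si-NC replicate 2 and -8093 without si-circCpsf6 replicate 3. No test was made on the sum. The 3p arms alone summed to 2916, 2985 and 4396 with si-NC against 4209, 4907 and 5584 with si-circCpsf6, most of it miR-15b-3p.

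Among the 5p arms, the share of miR-16-5p varied less than the summed 5p value, which ran from 35031 to 110979. miR-16-5p held 60.4%, 60.7% and 60.6% of the summed 5p values with si-NC against 57.1%, 57.8% and 55.0% with si-circCpsf6. The 3 si-NC shares were within 1 percentage point of each other, although si-NC replicate 3 had the highest level by far, and all lay above the si-circCpsf6 shares. miR-195a-5p likewise held a larger share in every si-NC library (4.49% to 4.95%) than in any si-circCpsf6 library (2.89% to 3.92%). No test was made on the shares, and no background over other entries was computed for them. The shares of a library are parts of the same whole, so a lower share of one miRNA comes with a higher share of others. miR-15b-5p held 28.4%, 23.5% and 21.1% with si-NC against 30.6%, 28.0% and 33.9% with si-circCpsf6, with si-NC replicate 1 just above si-circCpsf6 replicate 2. The shares of miR-15a-5p (4.36% to 11.9% with si-NC, 6.53% to 7.21% with si-circCpsf6) and of miR-497a-5p (1.86% to 4.10% and 1.65% to 3.43%) overlapped. The mean share of miR-15a-5p was 7.67% with si-NC, or 5.56% without si-NC replicate 3, next to 6.85% with si-circCpsf6, so that the sign of the difference turned.

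**Figure D2:**
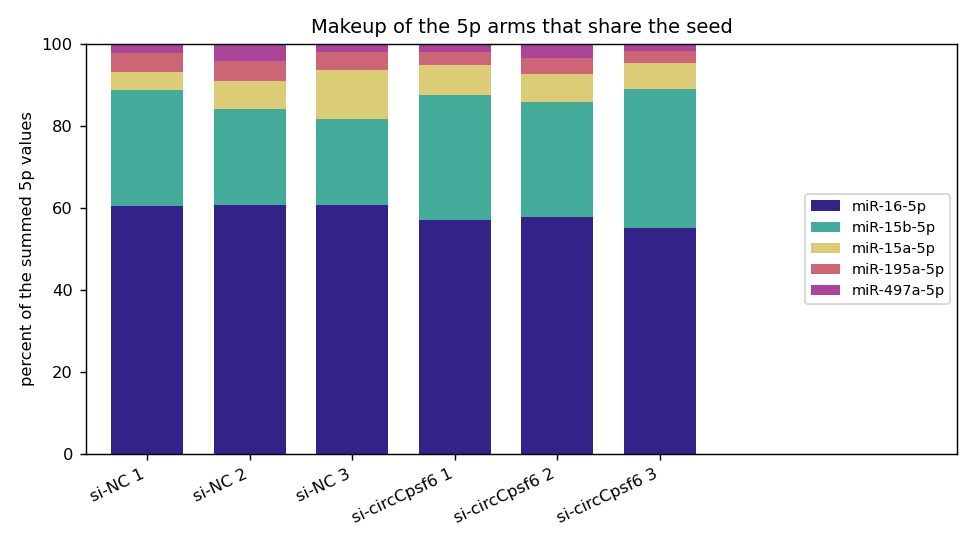
Stacked bars from 0 to 100 percent give, for each library, the percent of the summed 5p values held by each of the 5 seed-sharing miRNAs. The miR-16-5p block is 60.4% to 60.7% high in the si-NC libraries and 55.0% to 57.8% high in the si-circCpsf6 libraries.

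Ratios of co-transcribed or sister miRNAs do not depend on how a library was scaled. The ratio of miR-16-5p to miR-15b-5p was 2.13, 2.58 and 2.87 with si-NC against 1.87, 2.07 and 1.62 with si-circCpsf6. Every si-NC ratio was above every si-circCpsf6 ratio, with means of 2.53 ± 0.375 and 1.85 ± 0.221 (n = 3 per group). This ratio is made from the same values as the shares above and is no separate result. A two-sided exact permutation test gave p = 0.1, the smallest that 3 against 3 libraries allow, and 0.4 after adjustment over the 4 ratios computed. These ratios were chosen after their members' values were seen. The others overlapped between the groups: miR-15b-5p to miR-15a-5p ran from 1.78 to 6.52 with si-NC against 4.12 to 5.19 with si-circCpsf6, miR-195a-5p to miR-497a-5p from 1.21 to 2.41 and from 1.14 to 1.75, and miR-16-2-3p to miR-16-1-3p from 0.669 to 2.64 and from 0.860 to 2.18. Leaving out si-NC replicate 3 moved the si-NC mean of miR-15b-5p to miR-15a-5p from 3.92 to 4.998, on either side of the si-circCpsf6 mean of 4.52. It moved that of miR-16-2-3p to miR-16-1-3p from 1.43 to 0.829, next to 1.56.

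Arm use differed between the hairpins far more than between the groups. The 3p arm of Mir15b held 12.3%, 19.1% and 10.2% of the reads of both arms with si-NC against 14.3%, 22.0% and 13.4% with si-circCpsf6. The groups overlapped, replicate 2 having the highest share in each. In the fit over 236 hairpins with both arms listed, the log2 change of its 3p to 5p ratio was 0.32 (SE 0.44, limma adjusted p = 0.997), so that the larger change of miR-15b-3p than of miR-15b-5p was not shown to be a change in arm use. In that fit 0 of the 236 hairpins passed (0.0%), and 6 had an unadjusted p under 0.05 (2.54%), none of them a member. Without si-NC replicate 3, 1 hairpin passed (0.424%), again no member.

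The 3p arms of Mir15a and Mir195a held under 6% of both arms in every library. Those of Mir16-1 and Mir16-2 also held under 6% when set against the miR-16-5p value that both hairpins share. Their share within each hairpin alone is unknown and may be higher. For Mir15a the share was 4.84%, 4.63% and 0.782% with si-NC against 2.77%, 5.41% and 3.07% with si-circCpsf6, with si-NC replicate 3 alone under 1% (log2 change of the ratio 0.47, SE 0.82, adjusted p = 0.997). Against the shared miR-16-5p value, miR-16-2-3p made up a nearly fixed share, 1.75%, 1.60% and 1.71% with si-NC against 1.55%, 1.86% and 1.47% with si-circCpsf6. miR-16-1-3p varied more, at 1.77%, 2.37% and 0.655% with si-NC against 0.719%, 2.15% and 0.895% with si-circCpsf6 (log2 changes of these ratios -0.062 and -0.33, SE 0.34 and 0.69, both adjusted p = 0.997). For Mir195a the share ran from 0.0% to 3.66% with si-NC against 0.628% to 2.94% with si-circCpsf6 (log2 change 1.10, SE 2.09, adjusted p = 0.997, with the 3p arm listed at 0 in si-NC replicate 3). Without that library the log2 changes were -0.42 for Mir15a, -0.89 for Mir16-1 and -1.37 for Mir195a, none past the test.

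**Figure D3:**
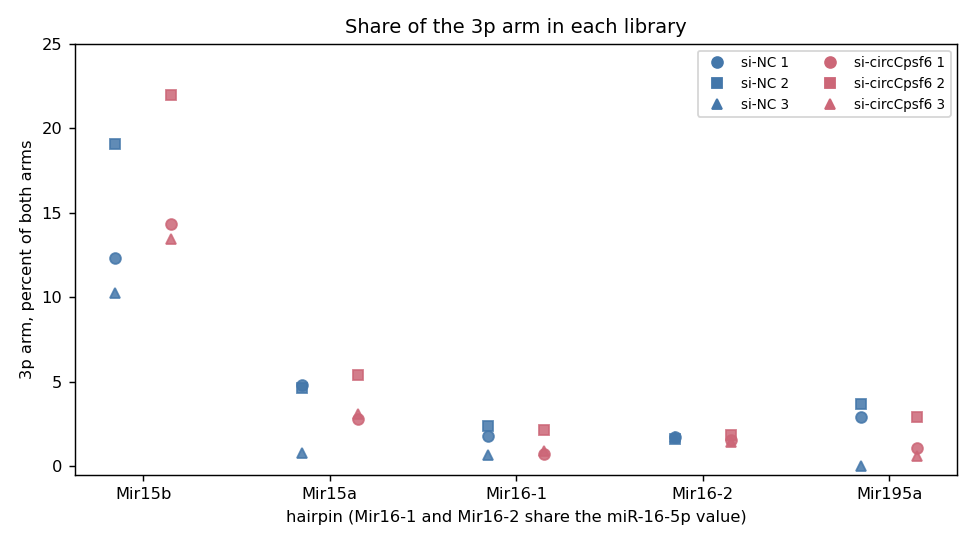
The 3p arm as percent of both arms of each hairpin, one symbol per library (blue si-NC, red si-circCpsf6; circle, square and triangle for replicates 1, 2 and 3). Mir15b lies between 10.2% and 22.0%, the other hairpins below 6%, and the groups overlap for every hairpin.

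The library si-NC replicate 3 set the spread of most members. It was the highest of the si-NC libraries for all 5 of the 5p arms, at between 1.75 (miR-497a-5p) and 6.11 (miR-15a-5p) times the mean of the other si-NC libraries, where 27.7% of all tested entries, and 42.3% of the 201 with a mean of 1000 or more, were highest in it. It was 2.84 times above the other si-NC libraries for miR-16-2-3p and 1.44 times for miR-15b-3p, and below them for miR-15a-3p and miR-16-1-3p (0.972 and 0.885 times). The 5p arms and miR-16-2-3p thus shared a pattern that miR-15a-3p and miR-16-1-3p did not.

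Without si-NC replicate 3, 8 of the 11 members, among them all 5 of the 5p arms, were higher with si-circCpsf6, the median log2 change being 0.50 next to -0.041 over all tested entries. miR-15a-5p then had a log2 change of 0.98 (SE 0.28, limma adjusted p = 0.209), miR-15b-3p one of 0.99 (SE 0.17, adjusted p = 0.0798) and miR-15b-5p one of 0.89 (SE 0.40, adjusted p = 0.394). For miR-16-5p it was 0.55 (SE 0.28, adjusted p = 0.437). None of the 11 passed, where 4 of 916 entries did (0.437%), and 2 had an unadjusted p under 0.05 (miR-15b-3p and miR-15a-5p), where 14.4% of all entries did and 5.46% with a higher value. The groups then did not overlap for 6 members, with miR-15a-5p, miR-15a-3p, miR-15b-5p, miR-15b-3p and miR-16-2-3p higher and miR-195a-3p lower, against 12.8% of entries higher, 18.9% lower and 31.7% in all. The sign of the family median depended on which library was dropped. Dropping si-NC replicate 1 gave -0.11 (0.18 over all tested entries), and dropping replicate 2 of that group gave -0.064 (0.17). For si-circCpsf6 replicates 1, 2 and 3 the family median became 0.051, 0.26 and -0.036 (0.095, 0.089 and 0.16 over all tested entries).

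**Figure D4:**
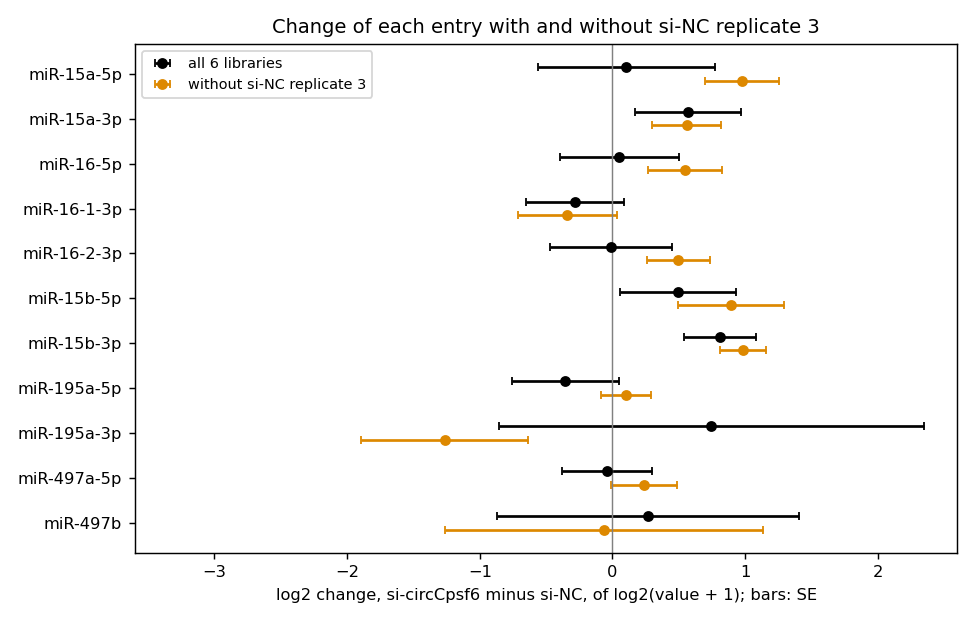
Log2 change of each entry (si-circCpsf6 minus si-NC, on the log2(value + 1) scale, bars 1 SE) with all 6 libraries in black and without si-NC replicate 3 in orange. Leaving out that library moves miR-15a-5p from 0.10 to 0.98 and miR-195a-3p from 0.75 to -1.26, and leaves miR-15a-3p and miR-15b-3p close to where they were.

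Among relatives of the seed outside these names are miR-322 and miR-503, neighbours on the X chromosome. miR-322-5p, the mouse counterpart of human miR-424, has the same seed and miR-503-5p differs from it within the seed.
miR-322-5p: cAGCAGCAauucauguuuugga
miR-503-5p: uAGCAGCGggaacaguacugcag
miR-322-5p was listed at 4700, 5161 and 6858 with si-NC against 7977, 9441 and 7282 with si-circCpsf6, without overlap between the groups (log2 change 0.57, SE 0.26, limma adjusted p = 0.735). miR-503-5p was at 1532, 2767 and 1756 with si-NC against 2552, 6621 and 2952 with si-circCpsf6, where si-NC replicate 2 lay above the lowest si-circCpsf6 library (log2 change 0.91, SE 0.41, adjusted p = 0.735). Of 7 such relatives looked up, miR-322 and miR-503 had entries, 4 in all counting both arms. All 4 had higher log2 values with si-circCpsf6 (median 0.63), and 0 passed. Of all 916 tested entries 510 were higher (median 0.086). The 4 entries are arms of only 2 neighbouring miRNAs. One entry, miR-322-5p, did not overlap, where 6.77% of all tested entries did so with a higher value. Without si-NC replicate 3, 3 of the 4 were higher (median 0.45), miR-503-3p going from 0.26 to -0.15. Of all tested entries 441 were then higher (median -0.041).

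Other miRNAs known for acting on the G1 to S step of the cell cycle gave no called change. Of 8 known for restraining it, 5 were tested, 2 with higher and 3 with lower log2 values (median -0.16, or -0.24 without si-NC replicate 3). The most abundant of them, miR-26a-5p, which represses Ezh2 and cyclins, had means of 34817 with si-NC against 31113 with si-circCpsf6 (limma adjusted p = 0.952). For miR-24-3p, of the same list, they were 26776 and 30213 (limma adjusted p = 0.962). Of 8 known for promoting it, all were tested, 6 with higher and 2 with lower values (median 0.16). Without si-NC replicate 3, 5 were higher (median 0.35). miR-17-5p, known for driving proliferation, had means of 22385 and 28754 (limma adjusted p = 0.830). The 2 with lower values had means of 143 and 11.0 (miR-221-3p) and of 127 and 13.3 (miR-222-3p), with limma adjusted p of 0.735 and 0.924. In si-NC replicate 3 miR-106b-5p was 28228, against 8720 and 8052 in its 2 fellow libraries. That is the same library in which the family's 5p arms were high.

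The entries outside the family whose profile over the 6 libraries was most like that of the summed family were miR-301b-3p and miR-130b-3p, whose hairpins neighbour each other and which share a seed of their own. Likeness was the root mean square difference between log2(value + 1) profiles, each centred on its mean over the 6 libraries, among 613 entries with a mean of 10 or more. It was 0.076 for miR-301b-3p, 0.098 for miR-130b-3p, 0.14 for miR-467d-5p, 0.15 for miR-467e-3p and 0.15 for the neuronal miR-137-3p, where the median entry stood at 0.85. miR-301b-3p was listed at 904, 706 and 2331 with si-NC against 1429, 935 and 1808 with si-circCpsf6. Within the family the same measure was 0.065 for miR-16-5p, which makes up most of the sum. It was 0.15 for miR-16-2-3p, 0.22 for miR-15b-5p, 0.29 for miR-195a-5p, 0.43 for miR-15a-5p, 0.47 for miR-497a-5p and 0.50 for miR-15b-3p. The remaining members were less alike, at 0.62 for miR-15a-3p, 0.77 for miR-16-1-3p, 1.35 for miR-497b and 2.62 for miR-195a-3p. The last 2 of these lay beyond the median entry outside the family.

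**Figure D5:**
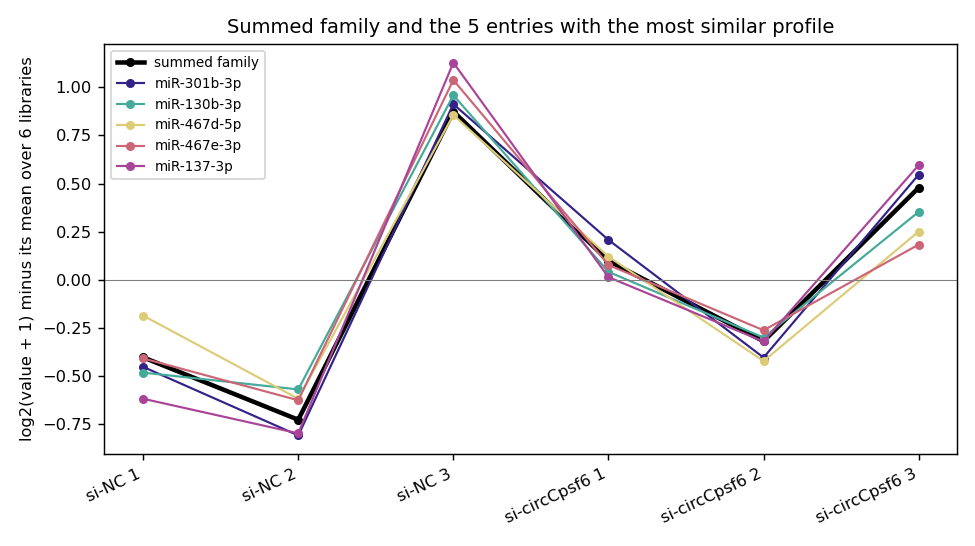
Log2(value + 1) of the summed family (thick black line) and of the 5 most similar entries outside it, each minus its mean over the 6 libraries, in library order. All 6 profiles peak in si-NC replicate 3 and are lowest in si-NC replicate 2.

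The deposited table also lists 4 entries named after miR-15b or miR-16 of other species, here hamster and guinea pig by their prefixes. They were low, the highest mean being 104 with si-NC against 94.7 with si-circCpsf6 (a variant of miR-16a-5p). Adding them to the family moved the difference in the summed value from 1505 to 1518.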

How the data were processed

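Per the labels' protocols, libraries were made from 1 ug of Trizol-extracted total RNA of N2A cells with a TruSeq kit; samples were grouped by title. The build was mm9 (per the submitters' processing notes). Which aligner, counting, normalization and miRNA reference were used is not stated in the labels or file headers. The values are the authors' normalized read numbers, per the file headers, rounded to whole numbers and treated as a score, and the authors' deposited p-value is given only where named. Read depth per sample is unknown. Suffixes (R+1, L-1, 1ss22AT) are read here as length and substitution variants.

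Rows repeating an earlier row with values above 0 in at least 3 libraries, or under the same name, were merged (1046 of 1080 left). The 916 with a mean of 1 or more were tested by limma 3.58.1 (R 4.3.3, trended variance) on log2(value + 1), with Benjamini-Hochberg adjustment over all of them at 0.05. The same test was run on the 3p to 5p ratio of 236 mouse hairpins. Both fits were run on simulated data with independent noise and planted changes larger than those of the members in the main fits. That run does not show how well changes as small as those of the members are found. A log2 change can differ in sign from that of the means where a library is at or near 0. The same holds where a library lies far above the others of its group, as for miR-15a-5p and miR-16-5p. Same-numbered replicates were checked for pairing and not treated as pairs. The members, lists and alternatives were chosen with earlier results of these data known. Every member is named, with the 5 entries of most similar profile; miR-214-3p, the 4 ratios and the library comparisons were picked after their values were seen. Other calculations used Python 3.11.15, numpy 2.4.6, pandas 2.3.3 and matplotlib 3.10.9.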

Additional observations from a re-analysis of the deposited data

How the results depend on the processing

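No entry of the family passed under 15 of 16 alternatives. With array weights per library (0.146 for si-NC replicate 3 and 0.805 to 2.95 for the others) 1 member passed, miR-15b-3p (log2 change 0.89, adjusted p = 0.0316, the range over its alternatives being 0.0316 to 0.789), as did 31 of 916 entries (3.38%) and 2 of 236 hairpins, no member hairpin among them; the weights are estimated from the same libraries. With 1 library left out, 0 to 4 entries, 0 members and 0 to 1 hairpins passed, the 4 and the 1 without si-NC replicate 3. miR-15b-3p, miR-15a-3p and miR-15b-5p were higher under every alternative run.

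The other members had no stable direction. Leaving out 1 library gave ranges of -0.40 to 0.98 for miR-15a-5p, -0.28 to 0.55 for miR-16-5p, -0.38 to 0.50 for miR-16-2-3p, -0.56 to 0.015 for miR-16-1-3p, -0.66 to 0.10 for miR-195a-5p, -0.34 to 0.24 for miR-497a-5p, -1.26 to 1.77 for miR-195a-3p and -0.67 to 0.94 for miR-497b. For the 3p to 5p ratio they were -0.42 to 0.93 for Mir15a, -0.89 to 0.052 for Mir16-1, -0.16 to 0.011 for Mir16-2 and -1.37 to 2.42 for Mir195a. Array weights turned the sign of miR-195a-5p (0.011), miR-195a-3p (-1.11), miR-16-2-3p (0.37), miR-497a-5p (0.20) and the ratios of Mir15a (-0.50) and Mir195a (-1.18); values under 20 set to 20 turned miR-195a-3p (-0.59) and the Mir195a ratio (-0.23). The cause was not tested. Same-numbered libraries deviated together for replicates 2 and 3 (r = 0.48 and 0.40) but not 1 (0.047); with the replicate block 0 members passed, and miR-15b-3p and miR-15b-5p had unadjusted p-values of 0.00507 and 0.0354. The number of libraries and the unknown depth limit what low entries such as miR-497b can show.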
